A study of Mus musculus with 96 samples.

Results

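The genes described here are Nolc1, which encodes a phosphoprotein of the nucleolus and the Cajal body, and 9 genes for proteins it works beside, so that 10 of the 24057 genes in the deposited table were followed. They were taken by gene symbol as the nucleolar scaffold and chaperone genes Nolc1, Ncl and Npm1, the box C/D small nucleolar ribonucleoprotein (snoRNP) core genes Fbl, Nop56 and Nop58, and the box H/ACA core genes Dkc1, Nhp2, Nop10 and Gar1. Nolc1 was chosen by its expression in this same contrast, as a gene among those most raised in both knockdown cultures, so its change is a description with no test. The other members and the gene lists used further on were chosen with earlier results of these data known. Their medians and shares are therefore descriptions too.

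Small nucleolar RNAs guide chemical modification of ribosomal RNA, and each class works inside a particle with a fixed set of proteins. In box C/D particles the methyltransferase fibrillarin (Fbl) is held by Nop56 and Nop58, and in box H/ACA particles the pseudouridine synthase dyskerin (Dkc1) is held with Nhp2, Nop10 and Gar1. Nolc1 binds both kinds of particle and is thought to serve as their chaperone between the Cajal body and the nucleolus, while nucleolin (Ncl) and nucleophosmin (Npm1) are abundant nucleolar proteins of ribosome production.

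Single-cell RNA-seq was performed on EL4, a mouse T-lymphoma line whose strain the labels give as C57BL/6, infected with viral particles carrying GFP and a short hairpin RNA. The hairpin was directed at luciferase in control cells (shLuc, WT) and at Ctcf in knockdown cells (shCTCF, CTCF-KD). The study's methods list 2 hairpins against Ctcf. Whether shCTCF #1 and shCTCF #2 differ in hairpin is not settled by the sources used here, so experiment and hairpin may go together. The design asked how expression and cell-to-cell variation differ after knockdown of the insulator protein CTCF. From 4 cultures, cells were taken up in the Fluidigm C1 system, and the authors picked 24 of high quality per culture for sequencing, with shLuc #1 and shCTCF #1 in experiment 1 and shLuc #2 and shCTCF #2 in experiment 2. Cells with fewer than 3000 genes above 0 were left out, which left 23 cells of shLuc #2 and 24 of each other culture. Since every culture was loaded on a capture circuit of its own, an effect of the circuit and one of the hairpin cannot be told apart within an experiment, and all groups carried a virus and a hairpin.

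Ctcf itself was measured first as a check of the labels. Its mean was 60.3 TPM in shLuc #1 and 16 TPM in shCTCF #1, a fold of 0.265, but 37.1 TPM in shLuc #2 and 44.9 TPM in shCTCF #2, a fold of 1.21. The sequenced cells labelled shCTCF #2 therefore did not show a lower mean Ctcf level than those of their control, which concerns the RNA of these cells alone, and results are given for each experiment apart as well as together. The median cell held 247586 reads in shLuc #1 and 230477 in shLuc #2, against 234260 in shCTCF #1 and 131098 in shCTCF #2, as recovered from the TPM steps. The median number of genes detected was 4771 and 4635 in the WT cultures and 6172.5 and 5656 in the CTCF-KD cultures. Reads carried no molecular identifiers, so intervals cover counting error only. The summed level of 10 T lymphocyte markers stood at 8797 and 8767 TPM in WT and was lower, at 6397 and 6347 TPM, after knockdown. Of these markers Cd3d, Cd3g and Lck lay lower in both CTCF-KD cultures than in both WT cultures. The others overlapped between conditions, as Cd5 did at 158 and 129 TPM in WT and 152 and 141 TPM in CTCF-KD. Over the 95 cells kept, the summed markers of other cell types reached at most 52.1 TPM for myeloid cells, 1.10 for erythroid cells and 1.44 for fibroblasts in a culture. The part that the detection of genes, the T lymphocyte markers or the cell cycle markers given further on have in the results was not tested.

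The sequences before the start sites of 4 members are shown because their levels lay apart between conditions and a searched motif was found there. Entries for 8 of the 10 members were found in the RefSeq promoter table of GRCm38.p6, with none for Fbl and Npm1. Starts are those of RefSeq and can differ from the GENCODE bounds given further on. The RefSeq start of Nhp2 lies past its GENCODE start at 51619735, so its motif lies inside the gene by GENCODE. The 300 bases from 250 before to 50 after each start were searched on both strands for the ETS core CCGGAAG, the E-box CACGTG, the YY1 core AAGATGG and the TATA box TATAAA, which share no whole site with each other. The ETS core was found in 3 of 8 member windows against 8.86% of 32851 windows, at 14 bases before the start of Nolc1, 23 before that of Nhp2 and, on the other strand, 43 before that of Gar1. The ETS core holds a CG, and these windows held 18, 18 and 30 CG against a median of 7 over all windows. The share over all windows is therefore not one of windows with a like CG content. TATAAA was found in 1 member window, on the other strand 189 bases before the start of Dkc1, against 13.6% of all windows. CACGTG and AAGATGG were in 0 of 8 member windows, against 7.15% and 6.34% of all. The 250 bases before each start run 5′ to 3′ on the strand of the gene, with the matched motif in capitals, for Nolc1 at chr19:46075597-46075846 (plus strand), Nhp2 at chr11:51619523-51619772 (plus strand), Gar1 at chr3:129831397-129831646 (minus strand) and Dkc1 at chrX:75095604-75095853 (plus strand).
Nolc1: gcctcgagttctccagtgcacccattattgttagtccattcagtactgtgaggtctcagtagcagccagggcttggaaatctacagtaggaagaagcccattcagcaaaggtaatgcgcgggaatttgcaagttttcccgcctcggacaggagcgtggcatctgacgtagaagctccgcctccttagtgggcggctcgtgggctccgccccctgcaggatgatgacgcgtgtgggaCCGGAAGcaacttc
Nhp2: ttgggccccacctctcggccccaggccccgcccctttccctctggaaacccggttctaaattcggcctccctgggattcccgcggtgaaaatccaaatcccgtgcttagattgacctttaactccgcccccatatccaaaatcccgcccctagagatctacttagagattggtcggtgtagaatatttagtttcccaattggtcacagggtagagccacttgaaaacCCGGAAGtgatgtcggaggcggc
Gar1: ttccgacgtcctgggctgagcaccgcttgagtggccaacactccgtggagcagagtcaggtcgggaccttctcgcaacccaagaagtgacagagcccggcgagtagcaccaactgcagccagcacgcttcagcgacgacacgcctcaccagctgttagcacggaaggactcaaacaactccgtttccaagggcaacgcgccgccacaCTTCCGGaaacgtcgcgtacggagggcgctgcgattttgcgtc
Dkc1: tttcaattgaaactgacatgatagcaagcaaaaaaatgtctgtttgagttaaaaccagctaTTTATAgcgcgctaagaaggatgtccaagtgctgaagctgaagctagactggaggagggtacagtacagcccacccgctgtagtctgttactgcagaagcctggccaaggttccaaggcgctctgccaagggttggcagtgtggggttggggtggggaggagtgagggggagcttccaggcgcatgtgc

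Nolc1 lies on chromosome 19 at 46075863-46085530 in the GENCODE annotation of GRCm38, and none of its transcript's 50-base stretches occurs in another gene. Over the cells of the WT cultures its level ran from 0 through a median of 3.72 to 246 TPM in shLuc #1 and from 0 through 10.7 to 98.2 TPM in shLuc #2. In the CTCF-KD cultures it ran from 2.25 through 144 to 426 TPM in shCTCF #1 and from 49.2 through 196 to 441 TPM in the culture labelled shCTCF #2. The cells of the 2 conditions overlapped, since 3 of 24 cells of shCTCF #1 and 20 of 24 cells of shCTCF #2 lay above the highest WT cell of their own experiment. Culture means were 34.9 and 28.4 TPM in WT and 152 and 217 TPM in CTCF-KD, which is 4.36-fold higher in experiment 1 and 7.63-fold higher in experiment 2. On the log2(mean TPM + 1) scale the change was 2.49 ± 0.42 (SE, n = 2 cultures per condition), and 2.24 without the culture labelled shCTCF #2. This was rank 2 of the 11980 genes by the limma statistic, as the choice of the gene fixed. Reads of Nolc1 were found in 14 of 24 and 12 of 23 WT cells and in all 24 cells of each CTCF-KD culture.

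**Figure D1:**
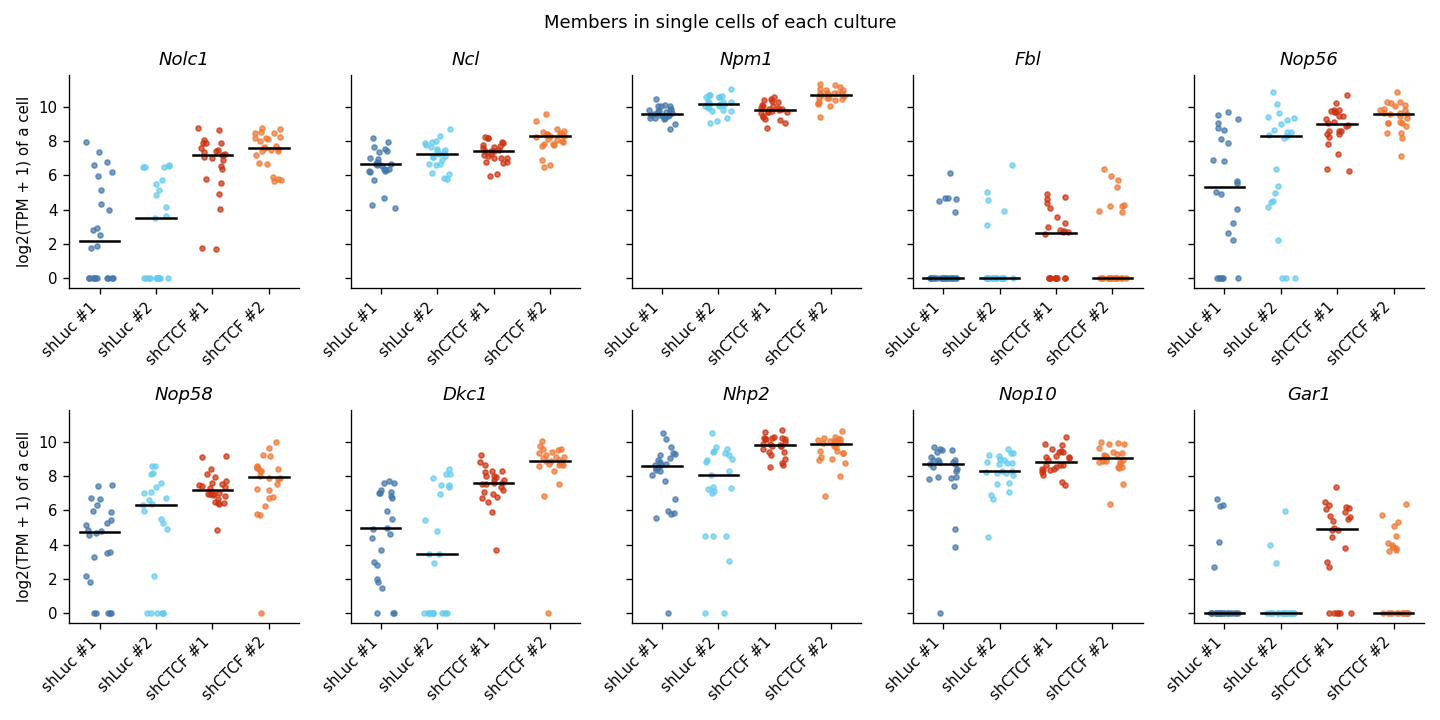
Each point is a cell, each panel a gene, the x axis gives the culture and the y axis log2(TPM + 1), with a black line at the median of the culture. For Nolc1, Nop56, Nop58 and Dkc1 the WT cultures hold many cells at or near 0 that the CTCF-KD cultures mostly lack, whereas Npm1 is high in all 95 cells.

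The other scaffold genes were present in every cell and differed less. Nucleolin (Ncl, chromosome 1, 86344719-86359400, minus strand) ran from 16.1 through a median of 98.5 to 293 TPM in shLuc #1 and from 54.5 through 150.4 to 412 TPM in shLuc #2. In CTCF-KD it ran from 60.6 through 170.2 to 306 TPM in shCTCF #1 and from 87.3 through 308 to 750.3 TPM in the culture labelled shCTCF #2. Single cells overlapped widely, while both CTCF-KD culture means, 173 and 307 TPM, lay above both WT means, 112 and 165 TPM. The change of 0.76 ± 0.42 (SE, n = 2 cultures per condition) did not pass the limma test across all genes (Benjamini-Hochberg adjusted p = 0.744), and it was 0.35 without the culture labelled shCTCF #2, 0.48 without shLuc #1 and 1.17 without shCTCF #1. Npm1 (chromosome 11, 33152287-33163206, minus strand), a chaperone of ribosomal proteins and histones, had the highest level of the 10 genes. Its culture means were 816 and 1178 TPM in WT and 932 and 1648 TPM in CTCF-KD, so that the conditions overlapped and shLuc #2 lay above shCTCF #1. The change of Npm1 was 0.34 ± 0.38 (SE; limma adjusted p = 0.872), and it turned to -0.07 without the culture labelled shCTCF #2. Npm1 shares 40.9% of its 50-base stretches with other genes, so reads kept only where they mapped uniquely may undercount it.

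Of the box C/D core, Nop56 and Nop58, the paired proteins that bridge the guide RNA and the enzyme, were higher in both CTCF-KD cultures, and Fbl was too sparse to place. Nop56 (chromosome 2, 130274430-130279313, plus strand) ran from 0 through a median of 39 to 833 TPM in shLuc #1 and from 0 through 309.7 to 1838 TPM in shLuc #2. In CTCF-KD it ran from 74.1 through 505 to 1638 TPM in shCTCF #1 and from 137 through 754 to 1821 TPM in the culture labelled shCTCF #2. The CTCF-KD cultures lacked the cells without reads that both WT cultures held. Among cells with reads the median was also higher in CTCF-KD, at 505 and 754 TPM against 115 and 343 TPM in WT. Means were 187 and 368 TPM in WT against 579.6 and 772 TPM in CTCF-KD, a change of 1.35 ± 0.41 (SE, n = 2 cultures per condition) that did not pass the test (limma adjusted p = 0.585). By experiment the change of Nop56 was 1.63 and 1.07 on this log2 scale, and without shLuc #1 it was 0.86. Of its 50-base stretches 37.6% occur in other genes, which unique mapping could also have cost it.

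Nop58 (chromosome 1, 59684971-59719044, plus strand) ran from 0 through a median of 25.8 to 176 TPM in shLuc #1 and from 0 through 77.2 to 384 TPM in shLuc #2. It ran from 28.1 through 142 to 566 TPM in shCTCF #1 and from 0 through 246 to 1004 TPM in the culture labelled shCTCF #2, where a single cell had no read. Again the cells overlapped and the culture means did not, at 41.6 and 107 TPM in WT and 184 and 300.2 TPM in CTCF-KD. The change was 1.80 ± 0.54 (SE, n = 2 cultures per condition; limma adjusted p = 0.585), with 2.12 in experiment 1, 1.48 in experiment 2 and 1.13 without shLuc #1. Fbl (chromosome 7, 28169710-28179269, plus strand), the methyltransferase, had 101 reads in all and was seen in 33 of 95 cells. Its culture means of 7.44 and 7.53 TPM in WT and 7.03 and 13.2 TPM in CTCF-KD gave -0.07 in experiment 1 and 0.74 in experiment 2, together 0.33 ± 0.85 (SE; limma adjusted p = 0.953). As 70.4% of the 50-base stretches of Fbl occur in other genes, mostly in Gm5812, its level is uncertain and a difference was not detectable at this depth. Summed over the 3 genes the box C/D level was 236 and 482 TPM in WT and 770.2 and 1086 TPM in CTCF-KD.

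Among the box H/ACA genes Dkc1 differed most between conditions and Nhp2 most evenly. Dkc1 (chromosome X, 75095854-75109777, plus strand), the pseudouridine synthase that also belongs to telomerase, ran from 0 through a median of 30.1 to 209 TPM in shLuc #1 and from 0 through 9.78 to 343 TPM in shLuc #2. It ran from 12 through 192 to 595 TPM in shCTCF #1 and from 0 through 474 to 1042 TPM in the culture labelled shCTCF #2. No WT cell reached the median cell of shCTCF #2, whereas WT cells and cells of shCTCF #1 overlapped. Means were 65.7 and 80.9 TPM in WT and 218 and 502 TPM in CTCF-KD, a change of 2.17 ± 0.47 (SE, n = 2 cultures per condition; limma adjusted p = 0.585) and of 1.57 without the culture labelled shCTCF #2. When log2(TPM + 1) was averaged over the cells of a culture, which weighs cells without reads more, Dkc1 rose by 3.93 ± 0.59 (SE; limma adjusted p = 0.0468).

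Nhp2 (chromosome 11, 51619735-51623714, plus strand), an RNA-binding subunit, ran from 0 through a median of 375 to 1459.8 TPM in shLuc #1 and from 0 through 263 to 1460.2 TPM in shLuc #2. It ran from 368 through 905 to 1633 TPM in shCTCF #1 and from 113 through 909 to 1556 TPM in the culture labelled shCTCF #2. The highest cells were alike everywhere, and the medians of both CTCF-KD cultures lay far above those of both WT cultures. Means of 418 and 370.1 TPM in WT and 921 and 834 TPM in CTCF-KD gave changes of 1.14 and 1.17 in the 2 experiments, together 1.15 ± 0.28 (SE, n = 2 cultures per condition; limma adjusted p = 0.585). Nop10 (chromosome 2, 112261926-112263269, plus strand), the smallest subunit, had means of 401 and 366 TPM in WT and 515 and 558 TPM in CTCF-KD, a change of 0.48 ± 0.29 (SE; limma adjusted p = 0.755). Gar1 (chromosome 3, 129824912-129831396, minus strand), a further subunit of the particle, had 232 reads in all. It was seen in 5 of 24 and 3 of 23 WT cells and in 18 of 24 and 11 of 24 CTCF-KD cells, with means of 11.3 and 3.54 TPM in WT against 37.6 and 12.8 TPM in CTCF-KD. The change of Gar1 was 1.63 ± 0.95 (SE; limma adjusted p = 0.752), and it ranged from 0.89 without shCTCF #1 and 0.91 without shLuc #2 to 2.37 without the culture labelled shCTCF #2. Summed, the box H/ACA level was 896 and 821 TPM in WT and 1692 and 1907 TPM in CTCF-KD.

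**Figure D2:**
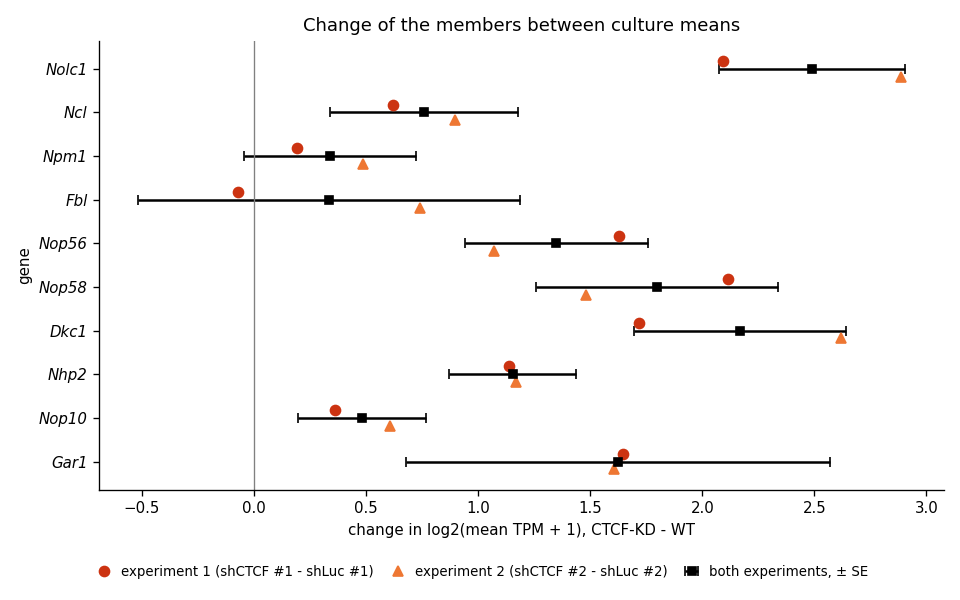
The x axis gives the change in log2(mean TPM + 1), CTCF-KD minus WT, and the y axis the gene. Squares with bars are the limma estimate ± SE over both experiments, circles experiment 1 and triangles experiment 2. All estimates lie above 0, from 0.33 for Fbl to 2.49 for Nolc1, with Fbl at -0.07 in experiment 1.

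All 10 members passed the filter on low values (log2(TPM + 1) above 1 in at least 2 cells), and so did 11980 genes in all. The median change of the 9 members other than Nolc1 was 1.15, beside 0.04 over all genes tested, and with Nolc1 it was 1.25. Both CTCF-KD cultures lay above both WT cultures for 7 of the 9 members other than Nolc1, whereas this held for 19.9% of all genes, and the exceptions were Npm1 and Fbl. Since the members were chosen with earlier results of these data known, this median and this count describe them and are no independent support. In the limma test across all genes 0 of the 9 members other than Nolc1 passed an adjusted p of 0.05, as did 0.0% of all genes. At an unadjusted p under 0.05 there were 574 genes higher and 338 lower, and 4 of the 9 members were among the higher, namely Nop56, Nop58, Dkc1 and Nhp2. With log2(TPM + 1) averaged over cells, where the median gene itself was 0.23 higher, 44 genes or 0.367% passed as higher and 2 as lower, with Dkc1 among the 44. The replicate block, which pairs the cultures of an experiment, gave 0 calls as well, with 918 genes higher and 613 lower at an unadjusted p under 0.05. The G1/S markers moved in part with these genes, at 629 and 1328 TPM in WT and 1413 and 1562 TPM in CTCF-KD when summed, and the G2/M markers stood at 1500.4 and 1650 TPM in WT and 1561 and 1122 TPM in CTCF-KD.

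TPM values are adjusted for length, so levels can be set in order between genes. Unique mapping may have lowered Npm1, Nop56 and above all Fbl, and the order rests on the gene lengths used for TPM. By the mean of the 4 culture means the order was Npm1 (1143 TPM), Nhp2 (636), Nop56 (477), Nop10 (460.1), Dkc1 (217), Ncl (189), Nop58 (158), Nolc1 (108), Gar1 (16.3) and Fbl (8.81). Npm1 lay above Nhp2, Nhp2 above Nop56, Nop10 above Dkc1, Nop58 above Nolc1 and Nolc1 above Gar1 in all 4 cultures. Nop56 lay above Nop10 and Ncl above Nop58 in 3 of 4 cultures and Gar1 above Fbl in 2 of 4, so these neighbours had no fixed order over the cultures. Averaged by condition, Nop56 and Nop10 stood at 277 and 384 TPM in WT and at 676 and 537 TPM in CTCF-KD. Ncl and Nop58 stood at 138 and 74.3 TPM in WT and at 240 and 242 TPM in CTCF-KD. The order of Dkc1 and Ncl went with the condition, since Dkc1 lay below Ncl in both WT cultures and above it in both CTCF-KD cultures. Within the box H/ACA core, whose proteins share a particle, Gar1 was the lowest in every culture. Dkc1 ranked 7 of 10 by its mean over the WT cultures and 5 of 10 over the CTCF-KD cultures.

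The number of members with reads in a cell was compared at equal depth, since the cultures differed in depth and in genes detected. After each cell was thinned to 80000 reads, which left out 1 cell of shCTCF #2, the median cell held 4178.5 and 3973 genes in the WT cultures against 5234 and 5216 genes after knockdown. The median number of members with a read was 7 in each WT culture and 9 in each CTCF-KD culture, thinned or not. The share of thinned cells with a read lay higher in both CTCF-KD cultures for 6 of the 9 members other than Nolc1 and for 38.9% of all genes tested. Before thinning the count was also 6 of 9, but with Fbl in place of Nop10, and its share over all genes is not given here. Nop10 had a read in 23 of 24 and 22 of 23 thinned WT cells, so its place rests on few cells. Nop56 was seen in 58.3% (95% exact binomial interval 36.6 to 77.9) and 82.6% (61.2 to 95) of thinned WT cells and in all 24 and 23 thinned CTCF-KD cells. Dkc1 was seen in 75% (53.3 to 90.2) and 56.5% (34.5 to 76.8) of WT cells and in 100% (85.8 to 100) and 95.7% (78.1 to 99.9) of CTCF-KD cells. For Dkc1 the intervals of both CTCF-KD cultures lie above that of shLuc #2 and overlap that of shLuc #1. The exceptions after thinning were Ncl and Npm1, which were in every cell, and Fbl, whose intervals overlap throughout.

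**Figure D3:**
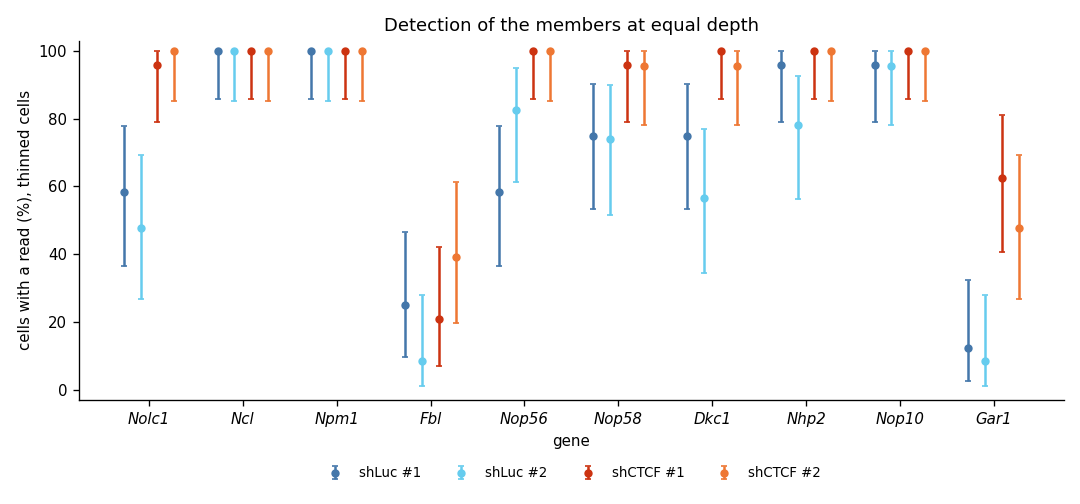
The y axis gives the percent of cells with a read after thinning to 80000 reads, the x axis the gene, and points with bars are cultures with their 95% exact binomial intervals. Ncl and Npm1 sit at 100% in all cultures, and Gar1 goes from 12.5% and 8.70% in the WT cultures to 62.5% and 47.8% in the CTCF-KD cultures.

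Cell-to-cell variation was measured as the CV, which divides the SD of log2(TPM + 1) across the cells of a culture by their mean. Nop56, Nop58, Dkc1 and Nhp2 fell in CV after knockdown, from WT values of 0.731 and 0.523 to 0.124 and 0.0857 for Nop56, from 0.636 and 0.668 to 0.127 and 0.258 for Nop58, from 0.572 and 0.989 to 0.149 and 0.227 for Dkc1, and from 0.274 and 0.421 to 0.0602 and 0.0868 for Nhp2. The 2 conditions did not overlap for any of these genes. The changes were -0.52 ± 0.08 (SE; limma adjusted p = 0.0359) for Nop56 and -0.46 ± 0.08 (limma adjusted p = 0.0363) for Nop58. Those of Dkc1 and Nhp2 were -0.59 ± 0.13 (limma adjusted p = 0.0430) and -0.27 ± 0.06 (limma adjusted p = 0.0430), over the 7823 genes with a CV. These 4 of the 9 members other than Nolc1 stand beside 4.14% of all genes called lower and 5 genes called higher. All 4 calls were lost with the CV of linear TPM (lowest limma adjusted p of a member 0.0719) and without the filter on the mean (0.0600). Nolc1, with no test, went from 1.04 and 1.02 to 0.282 and 0.130.

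Gar1 (change -1.53, adjusted p = 0.0511 by limma), Nop10 (-0.12, 0.157), Fbl (-0.73, 0.159), Ncl (-0.05, 0.466) and Npm1 (-0.0012, 0.987) did not pass. Both CTCF-KD cultures lay below both WT cultures for 8 of the 9 members other than Nolc1, all but Npm1, and for 53.9% of all genes, whose median CV change was -0.22. No member passed without shCTCF #1 (lowest adjusted p of a member 0.285 by limma, with 969 genes lower at an unadjusted p under 0.05) or without the culture labelled shCTCF #2 (0.230, with 1300 genes), and without shLuc #2 Nop56 alone passed (0.0450). With the replicate block 1557 genes were called lower and Gar1 passed beside the 4 members (limma adjusted p = 0.0025). Gar1 entered the CV test through its CTCF-KD cells, since its mean log2(TPM + 1) was 1.08 and 0.56 in WT against 3.96 and 2.09 in CTCF-KD. Nothing is therefore read from its call or from its place among the 8 members that lay below.

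The CV falls as the mean rises, so each CV was also set against the running median of genes with a like mean in the same culture. The difference from that median was 0.006 and -0.03 for Nolc1 in the WT cultures and 0.015 and -0.11 in the CTCF-KD cultures. Nop56 lay above it by 0.19 and 0.15 in WT and differed by 0.029 and -0.015 in CTCF-KD. Dkc1 differed by -0.056 and 0.13 in WT and by -0.051 and 0.064 in CTCF-KD, with no order between conditions. Nhp2 lay above it by 0.057 and 0.11 in WT and differed by -0.00727 and -0.00855 in CTCF-KD, and Nop58 differed by -0.066 and 0.060 in WT and by -0.10 and 0.024 in CTCF-KD, again with no order. Ncl and Npm1 lay under the median in all 4 cultures, by -0.19 and -0.049 in shLuc #1. With the SD of log2(TPM + 1) in place of the CV, Nop56 alone passed (-2.55, limma adjusted p = 0.0411).

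**Figure D4:**
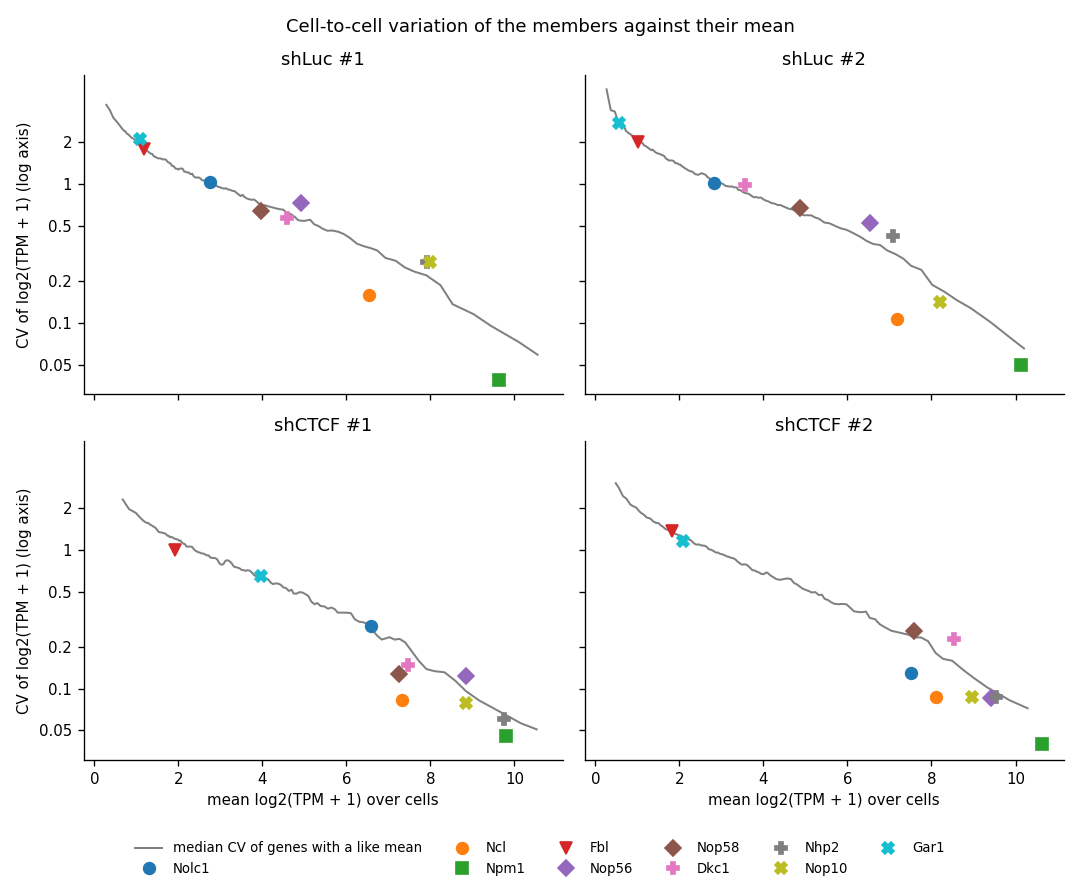
Panels are cultures, the x axis is the mean log2(TPM + 1) over cells and the y axis, a log axis, the CV of log2(TPM + 1). Symbols are the members and the grey line is the running median of genes with a like mean. Most members sit close to the line and moved along it to the right in the CTCF-KD cultures, and Ncl and Npm1 sit under it in each panel.

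Whether the members go together from cell to cell was described by Spearman's rho within each culture, over 24 cells or 23 in shLuc #2, as the mean of the 4 values. Cells of a culture share a circuit and differ in depth, so no p is given. Over the 45 pairs of members the median was 0.14, the range ran from -0.16 for Ncl with Fbl to 0.42 for Ncl with Nop58, and 14 pairs were above 0 in all 4 cultures. Values over other pairs of genes are not given here, so the median and the count describe the members alone. Ncl with Nop58 had 0.689 and 0.155 in the WT cultures and 0.278 and 0.554 in the CTCF-KD cultures. Nolc1 had its highest value among the members with Ncl (0.33) and then with Nop56 (0.29) and Nhp2 (0.27). With the number of genes detected in the cell, Nolc1 had a mean rho of 0.095 and Gar1 one of 0.39.

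**Figure D5:**
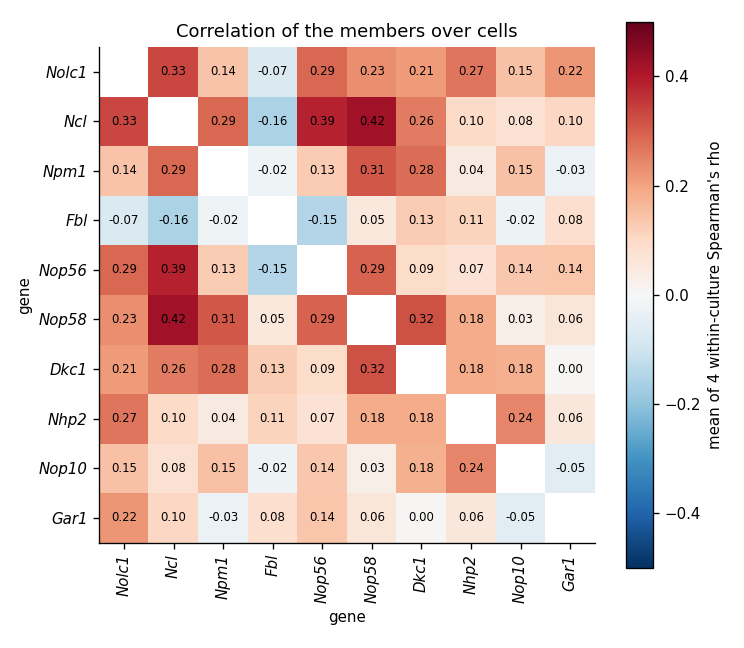
Rows and columns are the members and each square gives the mean over the 4 cultures of the within-culture Spearman's rho over cells. The largest values join Ncl with Nop58 (0.42) and Nop56 (0.39), and the row of Fbl holds the lowest, down to -0.16.

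Among 3696 genes with reads in at least 50% of the cells of every culture, the 5 most like Nolc1 by this mean rho were Hspe1 (0.42), the co-chaperonin of mitochondria, Set (0.40), a histone chaperone, Fkbp3 (0.38), a prolyl isomerase, Ebna1bp2 (0.38), a nucleolar protein of large-subunit assembly, and Timm23 (0.37), a channel of mitochondrial import. The median over these genes was 0.022 and the 99th percentile 0.29, and Ncl ranked 16 and Nop56 42. Culture means of Ebna1bp2 were 55.8 and 55.7 TPM in WT and 148 and 190.4 TPM in CTCF-KD, and those of Set were 483 and 545 TPM against 1276 and 1339 TPM. Those of Fkbp3 overlapped between conditions, at 403 and 933 TPM in WT and 494 and 1037 TPM in CTCF-KD.

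Of 40 further genes of snoRNP assembly and the nucleolus that were tested, 0 passed the limma test of expression in either direction. Among 10 assembly factors both CTCF-KD cultures lay above both WT cultures for 4, beside 19.9% of all genes, with a median change of 0.67. The highest statistics were those of Ruvbl1 (1.53 ± 0.46 SE), an ATPase of the complex that builds box C/D particles, and Shq1 (2.60 ± 0.97), a chaperone of dyskerin, and the lowest those of Pih1d1 (0.09 ± 0.43) and Taf9 (0.38 ± 0.57). Shq1 stood at 3.67 in experiment 1 and 1.54 in experiment 2. In CV, 2 of the 10 were called lower, beside 4.14% of all genes, namely Shq1 (limma adjusted p = 0.0488) and Znhit3 (0.0456). Culture means of Shq1 were 1.09 and 6.83 TPM in WT against 25.6 and 21.8 TPM in CTCF-KD. Its CV in WT rests on values near 0, so nothing is read from its call.

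The 10 Cajal body genes and partners of Nolc1 had a median change of 0.06, with 2 above in both CTCF-KD cultures, a share like the 19.9% of all genes, and 1 below. In CV 0 of 9 were called by limma, beside 4.14% of all genes called lower. Tcof1 (0.91 ± 0.51 SE), whose product treacle pairs with Nolc1 in ribosome production, and Smn1 (0.99 ± 0.66) had the highest statistics. Coil (-0.62 ± 0.79), the marker protein of the Cajal body, and Csnk2a2 (-0.19 ± 0.34), a catalytic subunit of the kinase that phosphorylates Nolc1, had the lowest. Of 9 genes for proteins of the U3 snoRNP or of the processome around it, which is needed for cleavage of the ribosomal RNA precursor, 5 lay above in both CTCF-KD cultures, beside 19.9% of all genes, and the median change was 0.98. Imp4 (2.13 ± 0.46) and Imp3 (1.07 ± 0.47) had the highest statistics and Nol6 (0.75 ± 0.95) and Rcl1 (0.71 ± 0.58) the lowest, and 3 of the 9 were called lower in CV, beside 4.14% of all genes.

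Among 11 other nucleolar genes 7 lay above in both CTCF-KD cultures, beside 19.9% of all genes, and 2 below, with a median change of 0.97. Nop2 (2.52 ± 0.46 SE), a ribosomal RNA methyltransferase, and Nop16 (1.48 ± 0.39) had the highest statistics, and Mki67 (-0.97 ± 0.56), the proliferation marker that coats mitotic chromosomes, and Surf6 (-0.58 ± 0.74) the lowest. Of the 10 with a CV value, 5 were called lower, beside 4.14% of all genes. Since the CV falls as the mean rises, and the genes of these lists were not set against genes with a like mean, nothing further is read from their CV calls. Nhp2l1, the box C/D subunit that binds the guide RNA itself, was higher by 0.75 in experiment 1 and by 1.74 in experiment 2, together 1.25 ± 0.48 (SE; limma adjusted p = 0.629).

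Several members are themselves hosts of small nucleolar RNAs. The annotation places 13 snoRNA genes inside their introns and on their strand, 5 in Nop56, 4 in Nop58, 3 in Ncl and 1 in Dkc1, and 7 of these are listed in the table, with a value in 0 to 16 of the 95 cells. Their levels are not compared, since the library method copies polyadenylated RNA. Exons of Dkc1, Nhp2 and Nop56 overlap a gene on the opposite strand by 45, 44 and 5 bases (Mpp1, Rmnd5b and Idh3b), and whether the counting used strand is not given in the sources used here.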

How the data were processed

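Single cells of 4 EL4 cultures were sequenced with the SMARTer protocol on the Fluidigm C1 system. The authors aligned reads to GRCm38 with STAR, counted uniquely mapped reads per RefSeq gene with HTSeq and deposited TPM values of 96 cells for 24057 genes. Wells with no cell or a pair of cells had been removed by the authors. Of the 96 cells, 95 with at least 3000 genes above 0 were kept. Whole reads were recovered from the steps of the TPM values (13334 genes) and used for depth, RPM and thinning to 80000 reads. The step was checked on simulated data.

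Expression was compared with limma 3.58.1 (R 4.3.3) (eBayes, trend) on culture means as log2(TPM + 1), so fold changes of low genes are understated, for genes that exceeded 1 on this scale in 2 cells or more. CV was compared in the same way for 7823 genes whose average over cells exceeded 1. Benjamini-Hochberg adjusted p under 0.05 was the threshold. The culture was the replicate, with 2 per condition, and the number of a culture pairs the samples because it marks the experiment in the study's methods. Same-numbered cultures deviated from their condition means with a correlation of 0.175 over 11980 genes. Python 3.11.15 with pandas 2.3.3 and scipy 1.17.1 did the rest. Stretches of 50 bases of each member's transcript were looked up in all GENCODE transcripts.

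The genes named are Ctcf, the 10 members, the 2 highest and 2 lowest limma statistics of each list that goes beyond the members and the 5 genes most like Nolc1. Nhp2l1, Znhit3 and the snoRNA hosts were named after their values were seen. The members and lists were chosen with earlier results of these data known. Snu13, Nop17l, Nopchap1 and Nop53 were not analysed here, and 1 list of cell type markers is not reported here. Alternatives covered the scale of the culture value, pseudocount, filters, centring, the replicate block, cells kept, RPM and leaving out each culture. Leaving out cells with fewer than 80000 reads was added after seeing the data.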

Additional observations from a re-analysis of the deposited data

Results flagged for a closer look

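Of the members, 2 moved in opposite directions in the 2 experiments, and neither difference was tested. The log2 change of Fbl was -0.0714 in experiment 1 and 0.739 in experiment 2, and Fbl rests on 101 reads. The CV change of Npm1 was 0.00698 in experiment 1 and -0.00942 in experiment 2. Ctcf, the targeted gene, had a log2 change of -1.85 in experiment 1 and 0.268 in experiment 2, and its CV changed by 0.266 and -0.148, differences that were not tested either.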

How the results depend on the processing

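With 2 cultures per condition and 23 or 24 cells in each, the depth leaves Fbl and Gar1 with few reads, and 0 members passed the limma test of expression in any alternative except with log2(TPM + 1) averaged over cells, where 44 genes were higher, 2 lower and 1 member (Dkc1) passed, with a median over the 10 members of 2.17. The members whose CTCF-KD cultures both exceeded the WT cultures numbered 8 with Nolc1 in the main comparison, 9 on that average, 7 after centring on the median gene (Gar1 dropped out) and 8 to 10 when 1 culture was left out, and the median change of the members was then 0.994 to 1.18. With 1 culture left out Npm1 ranged from -0.0720 to 0.749 and Fbl from -0.0792 to 0.747, below 0 without the culture labelled shCTCF #2. For CV, the 324 genes called lower became 0 with the CV of linear TPM (1697 lower at an unadjusted p under 0.05) and 0 without a filter on the mean (2222), 49 with the SD, 762 with a pseudocount of 10, 901 with all cells kept and 1557 with the replicate block, and 0 to 653 without 1 culture. The 5 genes called higher became 0, 0, 3 (SD) and 24 (replicate block), and 0 to 1 without 1 culture. The members called lower went from 4 to 0 with linear TPM, 0 without the filter, 1 with the SD and 0 to 5 without 1 culture, and 9 to 10 members then lay below. The median change of the members in CV was -0.49, and -0.61 with linear TPM, -0.55 with a pseudocount of 10, -1.19 with the SD, -0.52 with all cells kept and -0.51 to -0.41 without 1 culture. These counts and medians of the members in CV include Gar1, which entered the CV test through its CTCF-KD cells. With the SD, Npm1 (9.26e-05), Fbl (0.11) and Gar1 (0.57) turned in direction, and the CV change of Npm1 ranged from -0.0066 to 0.0041 without 1 culture, above 0 without shLuc #2 or shCTCF #2. The median difference in the share of cells with reads was 20.2 percentage points, 17.2 after thinning and 18.8 at TPM above 10. The causes were not tested. Under the replicate block, as a paired comparison of the cultures, the expression test gave 0 genes.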
